A study of Mus musculus with 2 samples.

Results

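The CpG-rich megabase windows were the 1 Mb windows of the mouse autosomes that held 8000 or more covered CpG sites, where a site counted as covered if it carried at least 5 calls in either replicate. They numbered 471 of the 2407 autosomal windows with a covered CpG site, or 19.6%, and lay on all 19 autosomes. The other 1936 windows served as the comparison. The choice rested on the number of covered sites and not on any CpG state, so no level was used in it, although coverage moved with the states as given below. SCoTCH-seq links the strands of a DNA molecule, so that a read pair gives the base, C, mC or hmC, on either side of a CpG site. It was run on genomic DNA of E14 cells, a line of mouse embryonic stem cells, in serum/LIF, with 2 libraries from 2 passages that are called replicate 1 and replicate 2. The 2 libraries are samples of 1 wild-type condition, so no comparison between treatments exists, and p-values refer to differences inside each library.

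A CpG site reads the same on both strands, and this symmetry lets the maintenance methyltransferase DNMT1 restore methylation after replication from the parental strand. TET enzymes oxidise mC to hmC, and DNMT1 copies hmC poorly, so a site can carry unlike bases on its strands. Mammalian genomes have lost most of their CpG sites outside CpG islands, and islands mark the starts of many genes and are largely free of methylation. A window rich in CpG sites at the megabase scale therefore usually holds many genes, many islands and GC-rich DNA. The CpG states are written with the plus strand first: CC is unmodified, MM is methylated on both strands, MC/CM is hemimethylated, HC/CH has hmC opposite C, HM/MH has hmC opposite mC, and HH has hmC on both strands. A level is the percentage of all calls in a window or class that were in a state.

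The window with the most covered CpG sites, chr5:114000000-114999999 (GRCm38), held 12528 of them. Sequences of 3 bins of 200 bp from it are shown as examples: an unmodified promoter, methylated intronic DNA and an exon with MM and hmC. They are plus-strand reference sequences with each CpG in capitals, and they were picked by their own levels, so the values are a description. The first is chr5:114130600-114130799, 313 bp from the start of Ung, which encodes a uracil-DNA glycosylase that starts base excision repair.
Ung promoter: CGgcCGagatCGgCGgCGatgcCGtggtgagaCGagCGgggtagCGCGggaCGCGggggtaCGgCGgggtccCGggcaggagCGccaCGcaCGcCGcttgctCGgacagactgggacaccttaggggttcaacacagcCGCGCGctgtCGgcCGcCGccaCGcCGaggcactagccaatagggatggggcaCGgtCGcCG
The Ung bin has 31 reference CpG sites, of which 11 were covered in both replicates, the most of any bin scored in the window. All 81 calls in replicate 1 and all 75 in replicate 2 were CC, which allows each other state up to 3.70% and 4.0% if calls are independent. A read pair can call several sites of a bin, so these limits are too low and the intervals below too narrow. The second bin, chr5:114576000-114576199, lies in an intron of Fam222a.
Fam222a intron: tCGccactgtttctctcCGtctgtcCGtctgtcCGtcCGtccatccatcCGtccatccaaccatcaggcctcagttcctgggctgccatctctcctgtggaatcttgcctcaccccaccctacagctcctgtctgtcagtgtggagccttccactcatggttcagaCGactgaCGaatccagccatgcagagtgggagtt
It has 8 reference CpG sites, and MM made up 70.0% of 30 calls in replicate 1 (exact 95% interval 50.6 to 85.3%) and 94.1% of 34 calls in replicate 2 (80.3 to 99.3%). The third bin, chr5:114745400-114745599, overlaps an exon of Git2, which encodes an ARF GTPase-activating protein.
Git2 exon: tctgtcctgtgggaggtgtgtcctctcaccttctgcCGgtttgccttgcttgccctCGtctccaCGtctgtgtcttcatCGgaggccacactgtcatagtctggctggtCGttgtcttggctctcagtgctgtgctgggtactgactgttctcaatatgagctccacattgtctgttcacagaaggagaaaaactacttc
Of its 5 reference CpG sites all were covered in both replicates, and HC/CH made up 22.5% of 40 calls in replicate 1 (10.8 to 38.5%) and 14.7% of 34 calls in replicate 2 (4.95 to 31.1%). MM was the most frequent state of this bin, at 47.5% and 58.8%. The HC/CH level of the whole window, 6.29% and 5.96%, lay below the interval of replicate 1 and inside that of replicate 2. The intervals are wide at these depths, so single bins serve as examples and all comparisons use windows or larger sets.

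The CpG-rich windows held 31.3% of the covered autosomal CpG sites, 29.7% of the reference CpG sites and 37.2% of the starts of protein-coding genes (7730 of 20807). Covered sites per window ran from 8001 to 12528 with a median of 8918, against a median of 4800 in the other windows. Of the windows nearest to the threshold, chr14:63000000-63999999 was the last inside with 8001 sites and chr16:22000000-22999999 the first outside with 7992. The last inside had HC/CH levels of 4.48 and 4.02% in replicates 1 and 2, and the first outside had 5.37 and 5.16%. At the threshold itself the levels of the windows on either side therefore overlapped.

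The windows clustered along chromosomes. Of the 471, 103 stood alone, and the other 368 had at least 1 CpG-rich neighbour. The longest run was chr5:111000000-125999999 with 15 windows, followed by 12 windows at chr4:131000000-142999999 and 10 windows at chr8:117000000-126999999. Chromosome 5 had the most, 48, and chromosome 19 the highest share of its windows, 35.6%. Chromosome 16 had the fewest, 9, and chromosome 14 the lowest share, 9.17%. Of the CpG-rich windows 68.8% began in the distal part of the chromosome past its midpoint, against 47.2% of the other windows.

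Base composition and gene content differed as well. The median GC content was 46.4% in CpG-rich windows and 40.7% in the others, and the median ratio of observed to expected CpG was 0.235 against 0.174. The median number of protein-coding gene starts was 13 against 4, although 2 of the 471 windows had none and 1 had 67. A median of 41.3% of reference sites in CpG-rich windows had at least 5 CpG sites within 100 bp, the site itself included, against 23.7% in the other windows. Sites outside protein-coding genes made up a median of 33.3% against 58.0%.

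Depth was similar between the groups but not equal. A covered site in CpG-rich windows carried a mean of 10.0 calls in replicate 1 and 6.38 in replicate 2, against 10.8 and 6.36 in the other windows. Of the reference sites 71.0% were covered in CpG-rich windows and 66.1% in the others. Coverage fell with local CpG density: of sites with no other CpG within 100 bp, 80.0% were covered in CpG-rich windows, whereas of sites with 10 or more it was 39.6%. In the other windows these shares were 75.8% and 25.4%. The most CpG-dense DNA, which is largely unmodified, was therefore under-represented in both groups, and its part in the differences of levels was not tested beyond the classes of density given below. Across the 471 windows, the percentage of reference sites covered had a Spearman correlation of -0.648 and -0.625 with CC in replicates 1 and 2, 0.620 and 0.607 with MM, 0.702 and 0.651 with MC/CM, and -0.356 and -0.428 with HC/CH. Its part in the levels was not tested. Of the 471 windows, 424 were also among the 471 with the most reference CpG sites, and the number of covered sites followed that of reference sites closely (Spearman correlation 0.956 over 2407 windows).

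The labelled cell type was checked at the gene starts of 6 stem cell genes. CC was 97.2% or more in both replicates within 1 kb of the starts of Pou5f1, Sox2, Zfp42 and Klf4, and was 80.1% and 86.2% at Nanog. At the annotated start of Esrrb it was 28.0% in replicate 1 and 15.0% in replicate 2, on 193 and 40 calls. Pou5f1 and Esrrb lie in CpG-rich windows. Transcript levels were not measured, so expression of these markers is not known.

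Unmodified CpG sites were more frequent and methylated sites less frequent in the CpG-rich windows. Averaged over autosomes, CC was 26.4% in CpG-rich and 20.3% in other windows in replicate 1, and 23.2% against 17.6% in replicate 2. MM was 52.0% against 57.5% in replicate 1 and 55.8% against 61.5% in replicate 2. The mean difference of the replicates was 5.79 ± 0.361 percentage points for CC (SD, n = 2) and -5.56 ± 0.160 for MM. Among calls other than CC, MM made up 70.7% against 72.2% in replicate 1 and 72.6% against 74.7% in replicate 2. That mean difference was smaller, at -1.76 ± 0.376 percentage points. All 19 autosomes had the same direction in each replicate. The exact sign-flip permutation test over autosomes, two-sided, gave p = 3.81e-06 in each replicate, the smallest value that 19 autosomes can give, and the Benjamini-Hochberg adjusted p over 22 tests was the same. Autosomes of 1 library share its preparation and are not replicates of the cells.

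The size of the CC difference varied among autosomes. It was smallest on chromosome 13, at 1.70 and 1.58 percentage points in replicates 1 and 2, and greatest on chromosome 7, at 12.5 and 11.8. On chromosome 7, CC in CpG-rich windows reached 34.9% and 31.6%.

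Hemimethylated sites were less frequent in the CpG-rich windows. MC/CM was 11.7% against 14.2% in replicate 1 and 13.1% against 15.4% in replicate 2, a mean difference of -2.36 ± 0.209 percentage points (SD, n = 2), lower on 19 of 19 autosomes in each replicate (exact sign-flip test, adjusted p = 3.81e-06). The share among modified calls, meaning all calls other than CC, was also lower: 15.9% against 17.8%, and 17.1% against 18.6%. Of the 471 windows, 467 lay below the median of the other windows in both replicates, and 0 lay above it in both.

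HC/CH, the state with hmC opposite an unmodified C, was more frequent in the CpG-rich windows. Its level was 5.12% against 3.61% in replicate 1 and 4.68% against 3.15% in replicate 2. The mean difference was 1.52 ± 0.0164 percentage points (SD, n = 2), higher on 19 of 19 autosomes in each replicate (exact sign-flip test, adjusted p = 3.81e-06). Across autosomes the difference ran from 1.15 to 1.94 percentage points in replicate 1 and from 1.17 to 1.98 in replicate 2, smallest on chromosome 6 and greatest on chromosome 5. As a share of modified calls, HC/CH was 6.97% against 4.53% and 6.11% against 3.83%. Of the 471 windows, 462 lay above the median of the other windows in both replicates, where the other windows counted were the 1583 with at least 1000 covered sites in each replicate.

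HM/MH and HH were also more frequent, by amounts that differed between the replicates. HM/MH was 4.25% against 3.90% in replicate 1 and 2.96% against 2.23% in replicate 2, so the difference was 0.345 percentage points in one library and 0.730 in the other. HH was 0.497% against 0.439% in replicate 1 and 0.223% against 0.132% in replicate 2. Both states were higher on 19 of 19 autosomes in each replicate (exact sign-flip test, adjusted p = 3.81e-06). Their shares of modified calls were higher too: 5.78% against 4.90% and 3.85% against 2.71% for HM/MH, and 0.675% against 0.551% and 0.291% against 0.161% for HH. The call of HH, as level and as share, was lost in replicate 1 under an alternative given in the section on processing.

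**Figure D1:**
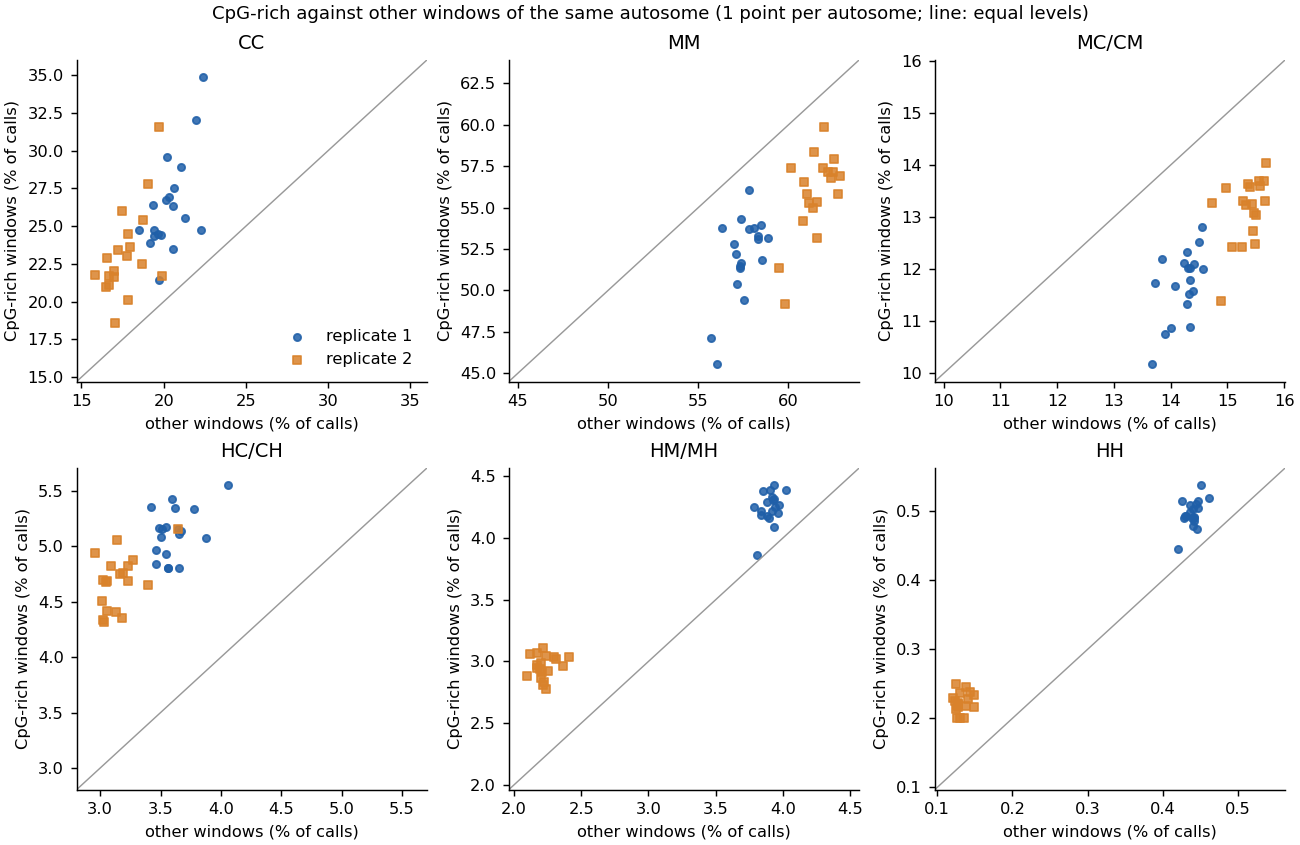
Level of each CpG state (percentage of calls) in the CpG-rich windows of an autosome against the other windows of that autosome, with 1 point per autosome and replicate and a line of equal levels. The 19 points of each replicate lie above the line for CC, HC/CH, HM/MH and HH and below it for MM and MC/CM.

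The libraries differed in their rates of miscalls. On synthetic duplexes of known state, 4.51% of MM sites were read as HM/MH in replicate 1 but 0.467% in replicate 2, and 0.709% against 0.0117% were read as HH. MC/CM was read as HC/CH at 3.50% in replicate 1 and 0.607% in replicate 2. After solving for the true levels with each replicate's own rates, HC/CH in CpG-rich and other windows was 4.68% and 3.05% in replicate 1 and 4.69% and 3.08% in replicate 2. The replicates were thus closer to each other than as called, where HC/CH in CpG-rich windows was 5.12% and 4.68%. Corrected HM/MH was 1.75% against 1.12% in replicate 1 and 2.60% against 1.88% in replicate 2, so its difference was 0.631 and 0.727 percentage points. Corrected HH was 0.0448% against 0% in replicate 1, where negative solutions had been set to 0, and 0.203% against 0.115% in replicate 2. HC/CH and HM/MH, and HH in replicate 2, were higher in CpG-rich windows on 19 of 19 autosomes after correction. For HH in replicate 1 the setting to 0 in the other windows fixed the direction, so no count of autosomes is given.

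The ratio of HC/CH to HM/MH depended on this correction. As called it was higher in CpG-rich windows, at 1.21 against 0.925 in replicate 1 and 1.58 against 1.41 in replicate 2, on 19 of 19 autosomes in both. With own call rates it was 2.68 against 2.74 in replicate 1, higher on 2 of 19 autosomes, and 1.80 against 1.64 in replicate 2, higher on 19 of 19. A difference in the balance of the hmC states is thus not established, because its direction was not shared by the replicates after correction.

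The levels followed the density of covered sites across all 2407 windows. The Spearman correlation with the number of covered sites was 0.872 and 0.845 for HC/CH in replicates 1 and 2, 0.729 and 0.864 for HM/MH, and 0.655 and 0.791 for HH. It was -0.707 and -0.652 for MC/CM, -0.430 and -0.452 for MM, and 0.358 and 0.355 for CC. Each sign held on 19 of 19 autosomes. Windows share libraries, base composition and neighbours, so these values describe the libraries and carry no p-value.

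The relation was also seen as a series of steps. HC/CH was 2.49% and 1.97% in the 651 windows with 2000 to 4000 sites and 4.36% and 3.85% in those with 6000 to 8000. Within the CpG-rich range it was 4.91% and 4.41% in the 248 windows below 9000 sites, 5.31% and 4.89% in the next 146, 5.59% and 5.30% in the next 60, and 5.70% and 5.49% in the 17 windows with 11000 or more. The step in level between the last 2 classes was smaller than the one before it in both replicates. This did not hold for the share of modified calls. From 9000 sites upward the HC/CH share was 7.34% and 6.47%, then 8.11% and 7.30%, then 9.10% and 8.21%, and the last step was the larger. In the 53 windows with fewer than 2000 covered sites the HC/CH level was 2.57% and 2.19%, above that of the next class. CC was 25.6% and 23.1% in those 53 windows, with an SD over windows of 12.7 and 14.5 percentage points. Few covered sites need not mean few CpG sites, since coverage of reference sites in the other windows went down to 0.0554%. The part of coverage in the levels of this class was not tested. CC was 19.04% and 16.1% in the windows with 2000 to 4000 sites and 19.3% and 16.6% in those with 4000 to 6000. It then climbed through the CpG-rich classes from 24.2% and 21.2% to 37.3% and 33.1%. MC/CM fell across the CpG-rich classes from 12.3% and 13.7% to 9.09% and 10.6%.

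**Figure D2:**
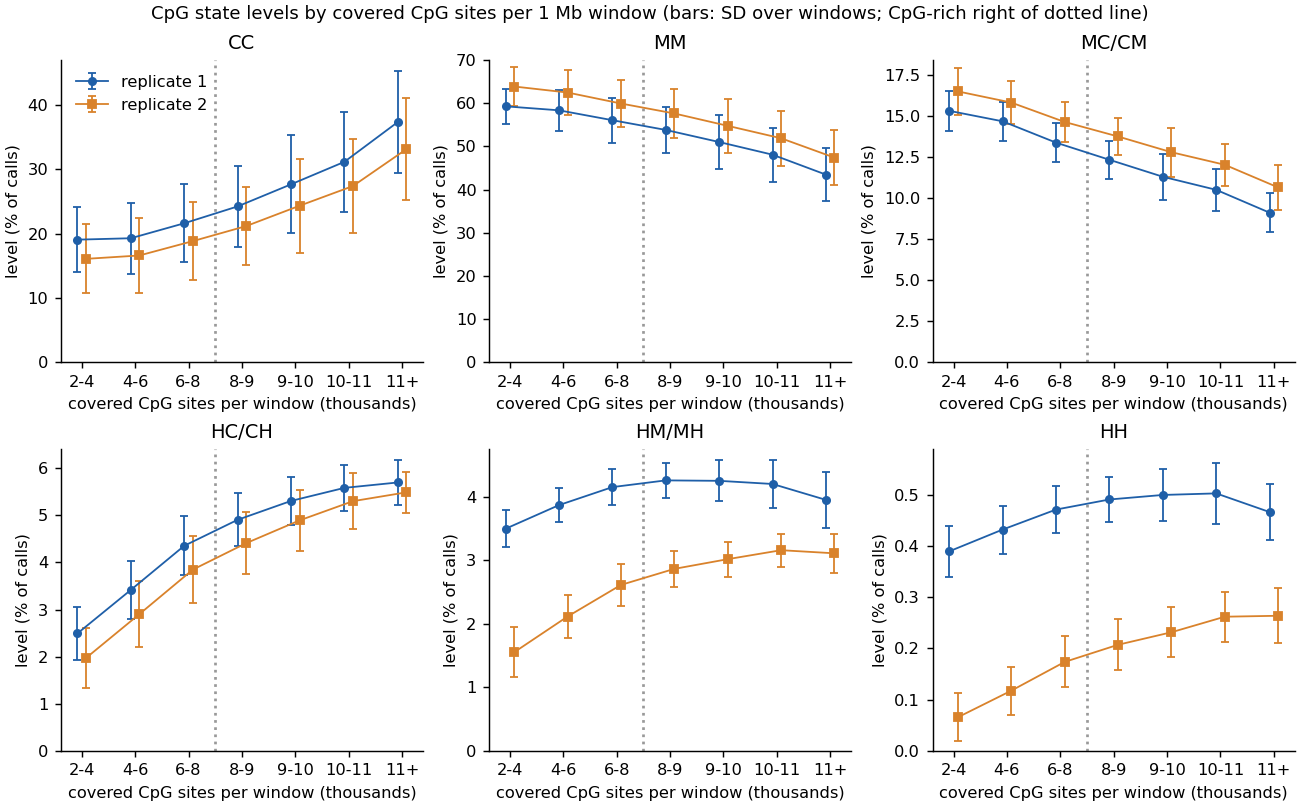
Uncorrected level of each CpG state (percentage of calls) in windows with 2000 or more covered CpG sites, grouped by covered CpG sites per 1 Mb (the axis is in units of 1000 sites), with calls pooled within a group, bars for the SD over windows and the CpG-rich groups right of the dotted line. CC rises mainly within the CpG-rich groups, HC/CH rises from group to group up to 5.70% and 5.49%, and HM/MH in the last group is 3.95% in replicate 1 and 3.11% in replicate 2.

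Among the 471 windows alone, the Spearman correlation with covered sites was 0.493 and 0.525 for HC/CH, 0.410 and 0.386 for CC, -0.399 and -0.394 for MM, and -0.568 and -0.522 for MC/CM. For HM/MH it was -0.0485 in replicate 1 and 0.420 in replicate 2. With levels corrected by own call rates these values became 0.420 and 0.427. With the correction, both libraries thus had a positive relation.

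The levels of single windows were reproducible for most states. Across the 471 windows, the Spearman correlation of one replicate with the other was 0.988 (CC), 0.989 (MM), 0.956 (MC/CM) and 0.933 (HC/CH). It was 0.387 for HM/MH and 0.171 for HH. The corrected levels gave 0.808 for HM/MH and 0.472 for HH. In CpG-rich windows HC was 2.56% and CH 2.56% in replicate 1, and 2.35% and 2.33% in replicate 2. HC was the higher on 9 of 19 autosomes in replicate 1 and on 14 in replicate 2, and on 11 in each replicate in the other windows. MC was 5.88% against 5.83% for CM in replicate 1, higher on 17 of 19 autosomes, and 6.60% against 6.54% in replicate 2, higher on 15. In the other windows MC was above CM as well, on 19 and 16 of 19 autosomes. HM was 2.12% against 2.13% for MH in replicate 1, higher on 4 of 19 autosomes, and 1.47% against 1.49% in replicate 2, higher on 2. In the other windows HM was above MH on 0 and 6 of 19.

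Gene starts sorted the CpG-rich windows by CC more strongly than covered sites did. The Spearman correlation between CC and the number of protein-coding gene starts was 0.765 and 0.740 over the 471 windows. The share of reference sites with at least 5 CpGs within 100 bp had 0.734 and 0.710 with CC, and 0.511 and 0.586 with HC/CH. In the 48 windows with 0 to 4 gene starts CC was 18.8% and 16.2%, in the 170 with 10 to 19 it was 26.2% and 22.6%, and in the 66 with 30 or more it was 38.8% and 34.7%. The HC/CH level was 4.54% and 4.04%, 5.29% and 4.81%, and 5.32% and 5.09% in these classes, with 5.48% and 5.10% in the 68 windows of 20 to 29 gene starts. Its share of modified calls rose through every class. That share was 5.60% and 4.81% with 0 to 4 gene starts, 7.94% and 7.01% with 20 to 29, and 8.68% and 7.79% with 30 or more. Rank correlation of the HC/CH level with gene starts over the 471 windows was 0.398 and 0.453 (Spearman), and 0.442 and 0.456 after correction, lower than that of CC. Even the windows with 0 to 4 gene starts had more HC/CH than the 3.61% and 3.15% of the other windows, with a CC level of 18.8% that was below the 20.3% there in replicate 1.

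**Figure D3:**
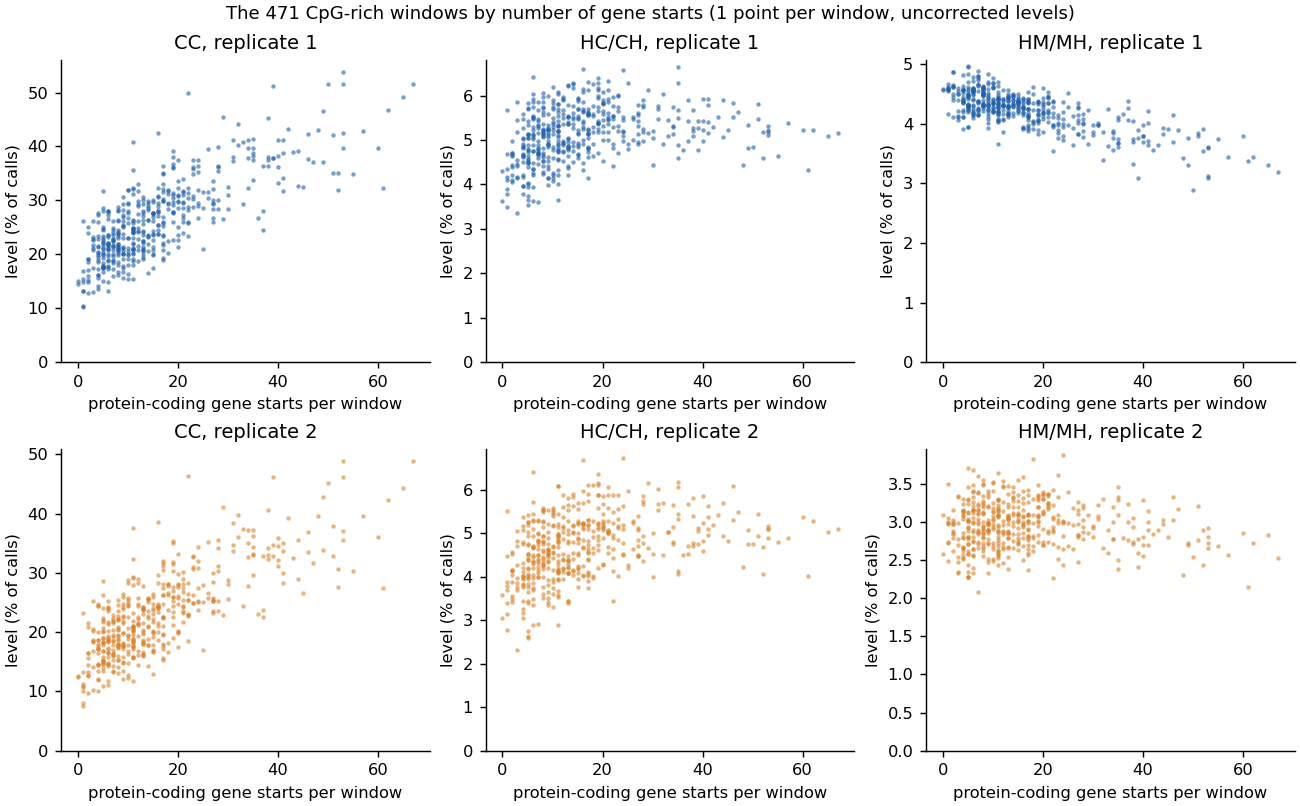
Levels of CC, HC/CH and HM/MH (percentage of calls, uncorrected) in each of the 471 CpG-rich windows against its number of protein-coding gene starts, with replicate 1 in the upper and replicate 2 in the lower row. CC climbs along the whole axis in both replicates (Spearman correlation 0.765 and 0.740), whereas HM/MH falls in replicate 1 only (Spearman correlation -0.655, against 0.0102 in replicate 2).

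The fall of HM/MH with gene starts in replicate 1 was not seen after correction. Its level was 4.46% in windows with 0 to 4 gene starts and 3.74% in those with 30 or more in replicate 1, and 2.89% and 2.86% in replicate 2. After correction these were 1.64% and 1.71% in replicate 1 and 2.53% and 2.53% in replicate 2, and the Spearman correlation over the 471 windows was 0.0673 and 0.0378. As a share of modified calls, corrected HM/MH rose over the same classes. It went from 2.01% to 2.79% in replicate 1 and from 3.01% to 3.89% in replicate 2. MM, of which 4.51% was read as HM/MH on the duplexes of replicate 1, fell over the same classes from 58.7% to 42.4% in replicate 1.

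**Figure D4:**
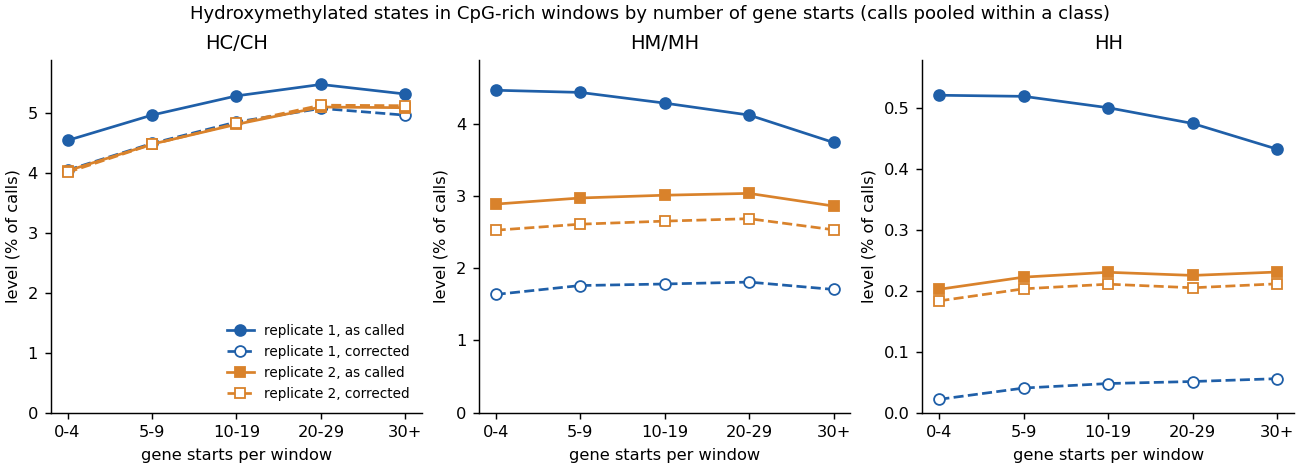
Levels of HC/CH, HM/MH and HH (percentage of calls pooled within a class) in CpG-rich windows by number of gene starts, as called (filled, solid) and corrected with each replicate's own call rates (open, dashed). The corrected HC/CH curves of the replicates nearly coincide. The corrected HM/MH level is nearly flat in both, from 1.64% to 1.71% in replicate 1 and 2.53% at either end in replicate 2. Its share of modified calls, which is not drawn, rises from 2.01% to 2.79% and from 3.01% to 3.89%.

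CC was higher in CpG-rich windows in all 4 annotations of the sites, and the level of HC/CH in all but promoters. Promoters, here the DNA within 1 kb of a protein-coding gene's start, made up 6.39% of covered sites in CpG-rich windows and 3.51% in the others. Their CC level was 80.2% against 74.3% in replicate 1 and 77.6% against 72.5% in replicate 2, higher on 19 of 19 autosomes. At locally dense promoter sites, which were 218610 of the 274992 covered promoter sites in CpG-rich windows, CC was 89.7% against 89.4% (higher on 11 of 19 autosomes) and 87.9% against 87.9% (9 of 19). Promoter HC/CH was 2.42% against 2.38% in replicate 1, higher on 13 autosomes, and 2.58% against 2.51% in replicate 2, higher on 11. These differences of 0.0352 and 0.0704 percentage points were smaller than their SD over autosomes of 0.202 and 0.268. As a share of modified calls, however, promoter HC/CH was 12.2% against 9.30% in replicate 1 and 11.6% against 9.17% in replicate 2, higher on 19 of 19 autosomes in each. At locally sparse promoter sites its level was also higher, at 4.88% against 4.08% (19 of 19 autosomes) and 4.72% against 3.95% (17 of 19). At locally dense promoter sites the level was 1.57% against 1.51% (13 of 19) and 1.81% against 1.78% (12 of 19), and the share of modified calls was 15.2% against 14.2% (16 of 19) and 15.1% against 14.8% (12 of 19). Uncorrected HM/MH at promoters was lower in CpG-rich windows in replicate 1, at 1.34% against 1.58% (lower on 18 of 19 autosomes), and was 1.25% against 1.28% in replicate 2 (lower on 9). HH there was 0.173% against 0.198% in replicate 1 (lower on 18) and 0.134% against 0.128% in replicate 2 (lower on 8). As shares of modified calls at promoters both states were higher in CpG-rich windows. The HM/MH share was 6.77% against 6.17% (higher on 17 of 19) and 5.59% against 4.66% (18 of 19). The HH share was 0.873% against 0.771% (17 of 19) and 0.603% against 0.464% (16 of 19).

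Away from promoters HC/CH was higher in CpG-rich windows in every annotation. In exons it was 5.82% against 4.74% in replicate 1 and 5.40% against 4.20% in replicate 2. In introns it was 5.35% against 4.02% and 4.80% against 3.47%. Outside protein-coding genes it was 5.05% against 3.28% and 4.66% against 2.83%, the widest gap of the annotations in percentage points. All were higher on 19 of 19 autosomes in each replicate. CC differed by 6.19 and 4.87 percentage points in exons, 3.67 and 3.19 in introns and 4.78 and 4.67 outside genes, and was higher on 17 to 19 of 19 autosomes.

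Local CpG density divided the states in another way. At isolated sites, with no other CpG within 100 bp, CC differed by 1.11 and 1.12 percentage points (18.98% against 17.9% and 15.6% against 14.5%) and was higher on 15 and 16 of 19 autosomes. HC/CH at the same sites was 4.38% against 2.83% and 3.86% against 2.30%, higher on 19 of 19 autosomes in both replicates. At sites with 5 to 9 CpGs within 100 bp HC/CH was 5.84% against 4.94% and 5.50% against 4.56%. At those with 10 or more it was 2.91% against 2.15% and 2.93% against 2.21%, again higher on 19 of 19. The CC difference was opposite in this densest class, at 78.4% against 80.6% in replicate 1 and 78.0% against 81.6% in replicate 2, and CC was lower in CpG-rich windows on 16 and 17 of 19 autosomes. Only 39.6% of the reference sites of this class were covered in CpG-rich and 25.4% in other windows, and the part of this in the reversal was not tested. MC/CM was also opposite there, at 2.61% against 2.26% in replicate 1 and 3.17% against 2.57% in replicate 2, higher on 18 of 19 autosomes in each. At sites with 5 to 9 CpGs uncorrected HM/MH was 4.64% against 4.62% in replicate 1, higher on 10 of 19 autosomes, and 3.44% against 3.15% in replicate 2, higher on 19. As a share of modified calls it was 6.66% against 6.27% and 4.75% against 4.16%, higher on 19 of 19 autosomes in each replicate. Restricted to locally sparse sites, with fewer than 5 CpGs within 100 bp, the CC difference was 2.91 percentage points and that of MM -3.39, against 5.79 and -5.56 over all sites, while that of HC/CH was 1.55.

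**Figure D5:**
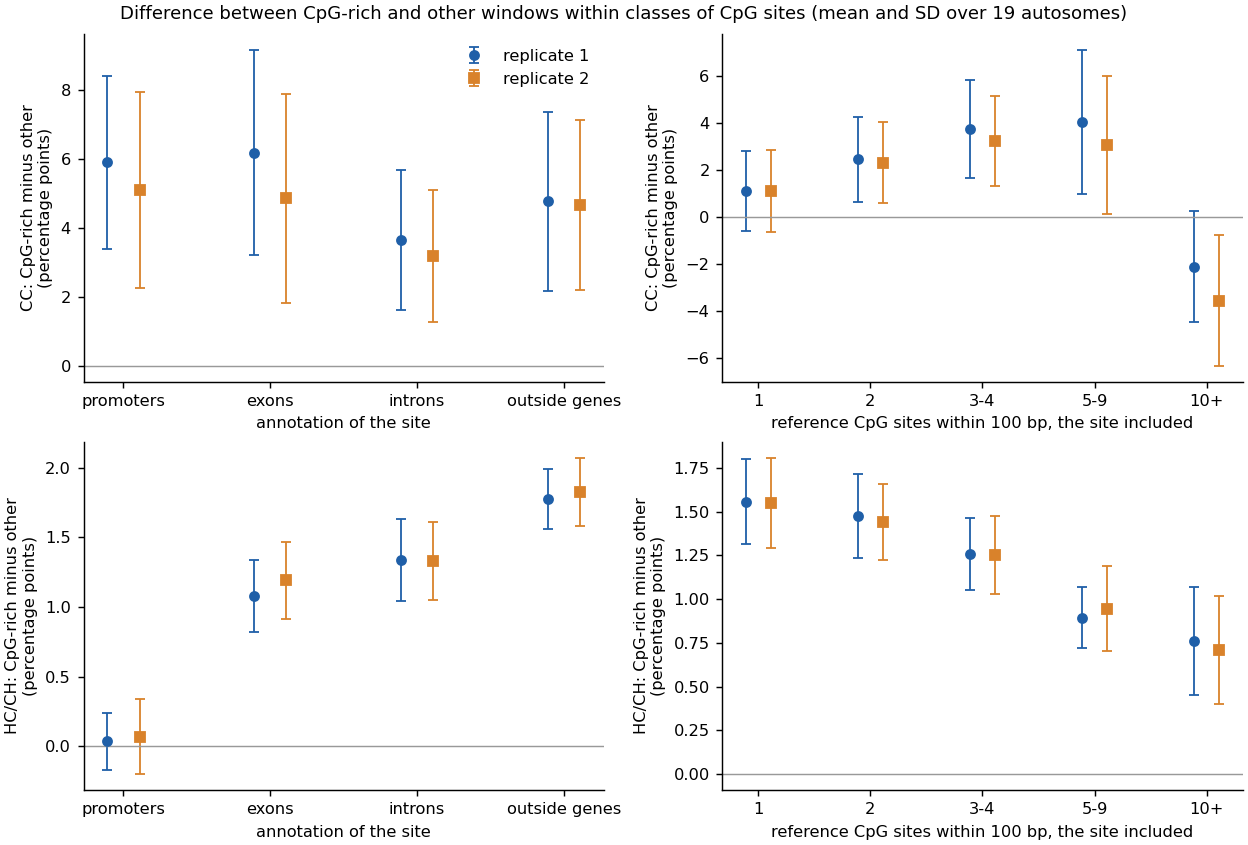
Difference in CC (upper row) and HC/CH (lower row) level between CpG-rich and other windows in percentage points, within annotations (left) and classes of local CpG density (right), as mean and SD over 19 autosomes for each replicate. HC/CH is near 0 at promoters and positive in all other classes, and CC turns negative where 10 or more CpG sites lie within 100 bp.

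The 15 adjacent windows on chromosome 5 show the variation inside 1 region. HC/CH ran from 4.98% at chr5:119000000-119999999 to 6.29% at chr5:114000000-114999999 in replicate 1, and was 4.58% and 5.96% there in replicate 2. CC ran from 21.8% at chr5:111000000-111999999 to 37.6% at chr5:115000000-115999999 in replicate 1, and was 16.8% and 32.8% there in replicate 2. The next window past the distal end of the run, with 5371 covered sites and 0 gene starts, had HC/CH levels of 3.43% and 3.08%. The window before its proximal end, with 7744 sites and 23 gene starts, had 4.80% and 4.18%.

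The 10 windows with the most covered sites ranged from 11305 to 12528. Their HC/CH ran from 5.10% at chr11:69000000-69999999 to 6.63% at chr11:116000000-116999999 in replicate 1, and these windows had 5.02% and 6.18% in replicate 2. Their CC ran from 29.8% at chr17:27000000-27999999 to 51.6% at chr10:80000000-80999999 in replicate 1, and was 24.4% and 46.1% in replicate 2. The first of these has 19 gene starts and the second 53. In the window with the most covered sites, chr5:114000000-114999999, HC/CH was 6.29% (exact 95% interval 6.15 to 6.43%) and 5.96% (5.69 to 6.24%).

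In each of these 10 windows the 2 protein-coding genes with the most covered sites were read. One of the 20, the predicted gene Gm20388, spans the whole of its window and only repeats its levels. Of the remaining genes HC/CH was lowest in Jph3 (chr8:121729623-121794276), which encodes a junctophilin that joins the plasma membrane to the endoplasmic reticulum, at 4.65% (4.15 to 5.19%) in replicate 1 and 4.32% (3.35 to 5.48%) in replicate 2. It was highest in replicate 1 in Rnf157 (chr11:116336353-116413032), which encodes an E3 ubiquitin ligase, at 8.01% (7.41 to 8.66%), and was 6.14% (5.10 to 7.32%) there in replicate 2. In Atp9a (chr2:168634438-168742409), which encodes a P4-type ATPase, it was 7.74% (7.24 to 8.25%) and 7.66% (6.70 to 8.71%), the highest in replicate 2. All intervals cover counting error only and treat calls as independent.

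HC/CH of other genes among the 20 lay between these values and was not tested against gene length. Dnah2 (chr11:69420809-69549110), which encodes an axonemal dynein heavy chain, had 7.25% and 7.0%, above the 5.10% and 5.02% of its window. Mgat5b (chr11:116918863-116986948), which encodes an N-acetylglucosaminyltransferase, had 7.16% and 7.47%, against 6.63% and 6.18% in its window. Acacb (chr5:114146535-114250761), which encodes a mitochondrial acetyl-CoA carboxylase, had 6.40% and 6.94%, against 6.29% and 5.96% in its window. Cit (chr5:115845278-116008947), which encodes the citron kinase of cytokinesis, had 6.60% and 6.14% over the 2290 covered sites inside its window, which had 6.01% and 5.88%. Anks1 (chr17:27909306-28062775), a longer gene than Dnah2, had 6.01% and 4.80% over the stretch in the window, and Arhgap39 (chr15:76723985-76818170) had 5.65% and 5.07%.

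CC varied more among these genes than HC/CH. It was highest in Plec (chr15:76170974-76232574), which encodes the cytolinker plectin, at 48.4% (47.3 to 49.5%) and 47.2% (44.9 to 49.4%). In Nfatc2 (chr2:168476410-168601657), which encodes a calcineurin-dependent transcription factor, it was 20.1% (19.4 to 20.8%) and 18.1% (16.7 to 19.6%). HC/CH in the same pair was 6.09% and 5.67% in Plec and 5.76% and 6.14% in Nfatc2. Chd3 (chr11:69343273-69369406), which encodes a chromatin remodeller of the NuRD complex, had 35.4% and 25.1% CC with 6.98% and 6.10% HC/CH.

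The extremes among the 471 windows were chosen by the mean of their levels in the 2 replicates and are given as a description. A single replicate can have another window at the extreme. CC was highest at chr7:19000000-19999999, with 53.8% and 48.9%, where 53 protein-coding genes start, among them Apoe, which encodes a lipid carrier, and the DNA repair genes Ercc1 and Ercc2. The same window had the lowest MM, 30.9% and 35.2%. CC was lowest and MM highest at chr12:107000000-107999999, with 10.2% and 7.63% CC and 68.3% and 72.3% MM. That window holds 1 protein-coding gene start, and 84.1% of its sites lie outside protein-coding genes. HC/CH there was 3.49% and 3.14%, below the median of the CpG-rich windows of 5.18% and 4.73%.

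By the mean of the replicates, HC/CH was highest at chr17:28000000-28999999, at 6.58% (6.42 to 6.74%) and 6.72% (6.42 to 7.04%). In replicate 1 alone chr11:116000000-116999999 was higher, at 6.63%. The chr17:28000000-28999999 window has 24 gene starts, including Mapk14, which encodes the kinase p38 alpha, and the nuclear receptor gene Ppard. HC/CH was lowest at chr17:67000000-67999999, at 3.36% (3.23 to 3.49%) and 2.31% (2.09 to 2.56%), where 3 genes start, the laminin gene Lama1, Lrrc30 and the receptor phosphatase gene Ptprm. MC/CM was lowest at chr10:80000000-80999999, at 6.65% and 7.92%, where 53 genes start, among them Dot1l, Mbd3 and Stk11. It was highest by the mean at chr1:38000000-38999999, at 14.02% and 16.2%, while the highest level in replicate 1 alone was 14.26%. By the mean, HM/MH was highest at chr2:59000000-59999999, at 4.96% and 3.70%, and lowest at chr8:70000000-70999999, at 2.89% and 2.54%, where 50 genes start. In replicate 2 alone HM/MH ran from 2.08% to 3.87% over the 471 windows, so neither window was the extreme there. HM/MH and HH are ranked here as called, and corrected levels of single windows were not ranked. HH ran from 0.379% and 0.139% at chr7:46000000-46999999 to 0.610% and 0.321% at chr19:53000000-53999999, taken by the mean of the replicates.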

How the data were processed

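SCoTCH-seq was run by the authors on genomic DNA from 2 passages of E14 mouse embryonic stem cells in serum/LIF. The authors selected read pairs by adapter configuration, trimmed adapters (Cutadapt 4.6), mapped the reads with BSBolt to GRCm38, dropped duplicates (Picard 3.1.1) and derived 1 CpG state per read pair and site. They deposited the counts of calls per CpG state and site and the depth, and the deposited percent values equal the count over the depth. Sites under 5 calls and blacklisted regions had been removed, and the counts were not corrected by spike-ins.

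Counts were summed per window, annotation class and replicate in pandas 2.3.3 and NumPy 2.4.6 under Python 3.11.15, tests used SciPy 1.17.1, and Matplotlib 3.10.9 made the plots. Every covered position was the C of a CpG in GRCm38.p6. Genes came from GENCODE vM21, and sites were assigned to promoters, then exons, then introns. The autosomes carried 141159011 calls at 13366464 sites in replicate 1 and 31102023 calls at 4882356 sites in replicate 2. Per autosome, pooled CpG-rich windows were compared with pooled other windows in each replicate by a two-sided exact permutation test that flips signs of the autosomes' differences, with Benjamini-Hochberg adjustment over 11 measures in 2 replicates and a threshold of 0.05. Miscalls were corrected by solving 9 linear equations with the replicate's own duplex call rates. Shares of calls carry 95% Clopper-Pearson intervals (exact), and limits for a count of 0 assume 3 counts. They cover counting error only and treat calls as independent. A read pair can call several neighbouring sites, so the uncertainty is larger than they give. The steps were tested on simulated data.

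Named windows were the 10 with the most covered sites and the highest and lowest for each state by the mean of the replicates. Named genes were the 2 with the most covered sites in each of those 10. Genes named at the extreme windows, the runs, the gene-start classes and the window of high depth were chosen after their values were seen. The members and lists were chosen with earlier results of these data known. Alternatives covered the level, coverage minimum, sites, correction, thresholds, window placement and replicates. Enhancers, transcript levels and the sex chromosomes were not used here.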

Additional observations from a re-analysis of the deposited data

How the results depend on the processing

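The 471 windows depended on replicate 1: at 8000 sites, leaving out a replicate gave 0 to 405 windows, and both a coverage minimum of 10 and sites covered in both replicates gave 0, so these settings kept the windows chosen on all sites. Without replicate 1 the HM/MH difference was 0.730 percentage points and without replicate 2 it was 0.345. The level and share differences kept their direction and their side of the threshold under all alternatives but 1, with p at or near the smallest that 19 autosomes allow, so that sizes say more than calls. With only locally sparse sites the CC difference was 2.91 and the MM difference -3.39 percentage points. With only locally sparse sites outside genes they were 2.81 and -3.61. With own call rates on all sites, HH in replicate 1 could only be higher in CpG-rich windows, since the other windows were set to 0, and says nothing on stability. With only locally sparse sites and own call rates, an alternative chosen after seeing the data, as was the one outside genes, HH fell short of the threshold in replicate 1 (adjusted p = 1, exact sign-flip test, 0.0389 percentage points over both replicates, and 0.0492 as a share of modified calls).

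The Spearman correlation with covered sites kept its sign throughout but moved by more than the spread between replicates in these cases, from means over the replicates of 0.859 (HC/CH), 0.797 (HM/MH), 0.723 (HH), 0.356 (CC), -0.441 (MM) and -0.679 (MC/CM). With per-site means it was 0.385 for CC and -0.467 for MM. With a coverage minimum of 10 HC/CH had 0.799, HM/MH 0.695, HH 0.564, CC 0.294, MM -0.369 and MC/CM -0.557. With sites covered in both replicates it was 0.317 for CC and -0.403 for MM. With windows shifted by 0.5 Mb it was 0.368 for CC. Against reference sites CC had 0.455, MM -0.535, MC/CM -0.760 and HC/CH 0.894. With other windows of at least 2000 sites it was 0.385 for CC and -0.469 for MM. Without promoter sites it was 0.274 for CC and -0.390 for MM. With only locally sparse sites CC had 0.162, MM -0.308 and MC/CM -0.554. Without chromosome 5 it was 0.343 for CC. The cause of these shifts was not tested. No paired analysis was possible because both libraries belong to 1 condition, so replicate numbers link no groups of samples. The windows themselves were compared within autosomes of the same library. The depth of replicate 2, 6.38 calls per site, limits single bins and genes.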

Other observations

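Of the 471 CpG-rich windows, chr17:30000000-30999999 stood apart in depth. A covered site carried 15.0 calls in replicate 1 and 8.11 in replicate 2, the highest of the 471 in each, against medians of 10.0 and 6.37. Of its 11831 reference sites 84.5% were covered, also the highest share. Its levels were not extreme: HC/CH was 5.23% and 4.71%, and CC was 20.9% and 18.5%. The cause of the depth was not tested.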
